A study of Mus musculus with 2 samples.

Results

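Among cells of the mouse pallium at postnatal day 3 (P3), 545 of 22193 filtered cells carried transcripts of at least 3 of the 4 genes Gfap, Serpinf1, Pla2g3 and Nog, and are called 4-gene astroglia here. The rule also asked for at least 1 unique molecular identifier (UMI, a tag that marks 1 captured transcript) of Slc1a3, the astroglial glutamate transporter GLAST. It left out any cell with a UMI of the division genes Mki67 and Top2a or of the microglial complement genes C1qa, C1qb and C1qc. There were 275 such cells in replicate 1 and 270 in replicate 2, or 2.45% (95% interval 2.17 to 2.75) and 2.46% (2.18 to 2.77) of the filtered cells. The cells were chosen by these transcripts, so the levels of the rule's genes are given as a description and without a test.

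The animals were wild-type mice in 1 group with 2 libraries, with no treatment compared. Cells born at embryonic day 12 were marked with the thymidine analogue EdU, the pallium (the dorsal forebrain, which includes the cortex) was dissected and pooled, and live cells among the brightest 10% for EdU were sorted for droplet capture. All shares are therefore shares of sorted, strongly labelled cells. The labels do not tell separate animals or pools apart between the 2 libraries. The 4-gene astroglia were set against 1148 and 1170 other astroglia, which had at least 2 UMIs each of Slc1a3 and the water channel gene Aqp4 and at most 1 of the 4 genes, and against 2 further classes of astroglia defined by other genes. Where a pair of values is given, replicate 1 comes before replicate 2.

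Astroglia are the cells of the brain that support neurons and clear transmitter, and they arise from radial glia, the stem cells of the embryonic pallium. Gfap encodes an intermediate filament protein of astrocytes, and Serpinf1 encodes pigment epithelium-derived factor, a secreted serpin that acts on neurons and vessels. Pla2g3 encodes a secreted phospholipase A2, an enzyme that frees fatty acids from membrane lipids. Nog encodes Noggin, a secreted protein that binds bone morphogenetic proteins (BMPs) and keeps them from their receptors. All 4 genes lie on mouse chromosome 11 in the build mm10 (GRCm38, GENCODE vM21): Gfap (ENSMUSG00000020932) at chr11:102887336-102900912, Serpinf1 (ENSMUSG00000000753) at chr11:75409769-75422701 and Nog (ENSMUSG00000048616) at chr11:89300638-89302332, all 3 on the minus strand. Pla2g3 (ENSMUSG00000034579) lies at chr11:3488284-3499350 on the plus strand. Its exons overlap those of Inpp5j on the other strand, and the sources used here do not say whether counting used strand, so their reads cannot be told apart.

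The files held 13858 and 14513 barcodes with 97091962 and 108903409 UMIs, of which 11228 and 10965 barcodes passed the filters. A 4-gene cell held from 1401 to 32200 UMIs with a median of 8518 in replicate 1, and from 966 to 41195 with a median of 9386.5 in replicate 2. Other astroglia had medians of 9585 and 10660.5 UMIs. Mitochondrial UMIs had medians of 2.72% and 3.36% in 4-gene astroglia and of 2.97% and 3.34% in other astroglia. Scrublet, a doublet caller, marked 10.9% and 12.2% of 4-gene astroglia and 13.7% and 14.1% of other astroglia. These cells were kept, and the counts without them are among the alternatives. The libraries shared 62 barcodes, carried by 2 of the 4-gene cells in each library.

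The cells fitted the label of astroglia. Summed over 12 general astroglial markers, levels were 16199 and 14882 CPM (UMIs of the gene per 1000000 UMIs) in 4-gene astroglia and 13929 and 12639 CPM in other astroglia. The median log2 fold change of these markers was 0.16, or -0.03 against other astroglia without division and C1q UMIs. Aqp4, which the rule did not ask for in 4-gene astroglia, had at least 2 UMIs in 238 (86.5%) and 231 (85.6%) of them. Its level was 987 and 958 CPM in 4-gene astroglia, against 475 and 449 CPM in other astroglia. Among 8 microglial and macrophage markers the summed level was 10.0 and 14.5 CPM in 4-gene astroglia and 77.1 and 77.0 CPM in other astroglia. The other astroglia could hold C1q transcripts by their rule, and 3.48% and 2.74% of them did, while 4-gene astroglia could not. The median log2 fold change of these 8 markers was -4.01, and 0.016 against other astroglia without division and C1q UMIs. Markers of choroid plexus and erythroid cells summed to at most 1.09 CPM in 4-gene astroglia. Endothelial markers summed to 6.82 and 2.91 CPM in 4-gene astroglia. Over the 3 tested the median log2 fold change was 1.63, or 1.79 without division and C1q UMIs in other astroglia. Only 2 of the 3 had more than 3 UMIs in at least 1 of the 2 classes, so these medians rest on low counts. Neuronal markers summed to 267 and 350 CPM in 4-gene astroglia and 354 and 398 CPM in other astroglia, and markers of oligodendrocyte precursor cells to 1094 and 1169 CPM and to 1488 and 1510 CPM. Meningeal and vascular fibroblast markers summed to 22.5 and 25.8 CPM in 4-gene astroglia and to 7.395 and 8.16 CPM in other astroglia. Of 7 tested fibroblast markers 3 were higher, beside 7.6% of all genes tested. Their part in the results was not tested. Col9a1, a collagen gene named further on, is not among these markers.

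The 4 rule genes stood out from other astroglia to different degrees. Gfap was at 448 and 556 CPM in 4-gene astroglia, against 105 and 102 CPM in other astroglia. Serpinf1 was at 382 and 393 CPM in 4-gene astroglia, against 8.26 and 5.26 CPM in other astroglia. Microglia, gated by at least 3 C1q UMIs, had 43.5 and 39.4 CPM of Serpinf1. Pla2g3 was at 352 and 345 CPM in 4-gene astroglia, against 13.6 and 11.6 CPM in other astroglia. Nog was at 237 and 208 CPM in 4-gene astroglia, against 23.1 and 22.8 CPM in other astroglia. Within 4-gene astroglia the 2 libraries lay furthest apart for Gfap. For each gene the 2 classes did not overlap, but the rule chose the cells by these genes. Slc1a3 was at 2280 and 2380 CPM in 4-gene astroglia and 2441 and 2516 CPM in other astroglia.

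In most cells of the class not all of the 4 genes were detected at this depth. All 4 were found in 112 (40.7%, 95% interval 34.9 to 46.8) and 114 (42.2%, 36.3 to 48.4) of the cells. Gfap had a UMI in 83.6% and 89.6%, Serpinf1 in 78.9% and 77.8%, Pla2g3 in 89.8% and 90.0%, and Nog in 88.4% and 84.8% of the cells. Among glutamatergic neurons, which serve as a measure of free RNA, Pla2g3 had a UMI in 1.25% and 1.38% of cells and Gfap in 6.62% and 6.11%, at median depths of 6328.5 and 7094 UMIs. The median 4-gene cell held 2 UMIs of Gfap, of Serpinf1 and of Pla2g3 in both libraries, and 1 and 2 UMIs of Nog. The highest cells held 39 and 68 UMIs of Gfap, 33 and 26 of Serpinf1, 18 and 17 of Pla2g3, and 10 and 11 of Nog. Serpinf1 was the gene most often missing, in 58 and 60 of the 163 and 156 cells with exactly 3 genes.

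**Figure D1:**
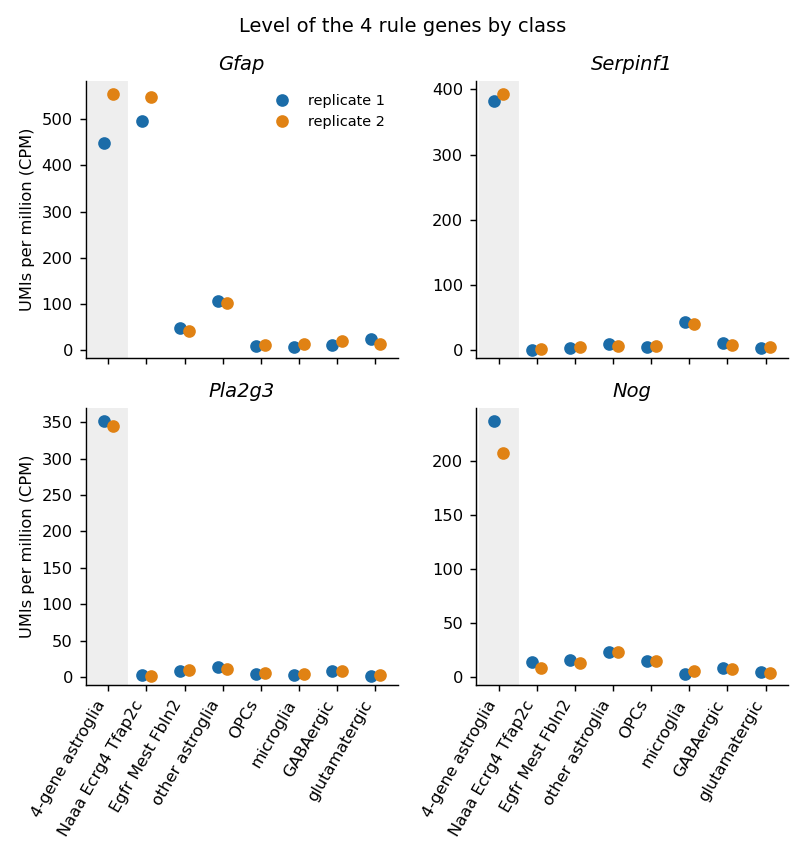
Level of the 4 rule genes in CPM (y axis, linear) in 8 classes of cells (x axis), with 1 point for each library. Grey marks the 4-gene astroglia, and the other astroglia include cells that also met the rules of the Naaa and Egfr classes. Gfap was at 448 and 556 CPM in 4-gene astroglia and at 497 and 549 CPM in the Naaa Ecrg4 Tfap2c cells, whereas Serpinf1 was at 382 and 393 CPM and at 0 and 2.06 CPM in these classes.

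The number of cells that met the rule depended on depth. After each cell was thinned to 2000 UMIs, the rule held for 0.791% and 1.00% of cells. Thinned in this way, Gfap had a UMI in 46.1% and 53.7% of 4-gene astroglia and in 12.9% and 12.8% of other astroglia. Cells just inside the threshold, with exactly 3 genes, were set beside cells just outside it, with exactly 2 (303 and 319 cells) under the same conditions. H2-Ab1 was at 51.5 and 57.1 CPM with 3 genes and at 14.6 and 11.4 CPM with 2. Hspb8, which encodes a small heat shock protein, was at 72.4 and 72.9 CPM with 3 genes and at 31.9 and 26.5 CPM with 2. Luzp2 ran the other way, at 174 and 202 CPM with 3 genes and at 323 and 326 CPM with 2. These 3 genes were picked from those with large differences between 4-gene and other astroglia in these same data. The values of the cells kept and left out did not overlap, but they are a description and do not support the threshold.

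Of 14648 genes tested between 4-gene astroglia and other astroglia, edgeR's quasi-likelihood test on summed counts called 1113 higher (7.6%) and 1189 lower (8.12%), 15.7% in all, at a Benjamini-Hochberg adjusted p of 0.05. The rule let other astroglia hold division transcripts, and 29.4% and 31.9% of them did. Against other astroglia without division and C1q UMIs, 724 of 14663 genes were higher (4.94%) and 512 lower (3.49%), 8.43% in all. With the same conditions on both classes, an alternative chosen after seeing the data, 689 of 14664 were higher (4.7%) and 474 lower (3.23%), 7.93% in all. Of the genes called, 668 higher ones were shared between the comparisons, 60.02% of the first list and 92.3% of the second. Among lower ones 377 were shared, 31.7% and 73.6% of the lists. Without the library as a block, 695 genes were higher and 625 lower, and without the Aqp4 condition on other astroglia 3005 and 3082. Without that condition the class of other astroglia widened to 5340 and 5560 cells. Cells gated by Pdgfra as oligodendrocyte precursor cells, outside the astroglial classes, then fell from 3826 and 3944 to 1651 and 1466. A single library gave 553 to 607 higher and 543 to 644 lower genes, with the spread taken from the other classes. The 4 genes were chosen with these cells known, so the calls describe how alike the libraries differed and do not show that the cells are a type.

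Genes of class II of the major histocompatibility complex (MHC) were among those furthest above other astroglia. Class II molecules are pairs of an alpha and a beta chain that present peptides to helper T cells, and in the brain they are known best from microglia and macrophages. H2-Aa encodes an alpha chain, H2-Ab1 and H2-Eb1 encode beta chains, and Cd74 encodes the invariant chain that escorts the pair through the cell. H2-DMa and H2-DMb1 encode the chains of H2-M, which loads the peptide, and Ciita encodes the factor that switches class II genes on. These genes were grouped after their values had been seen, so the group has no test of its own.

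H2-Ab1 (chr17:34257689-34269419, plus strand) was at 81.9 and 93.8 CPM in 4-gene astroglia, against 2.92 and 2.52 CPM in other astroglia. The log2 fold change was 5.03 ± 0.18 (SE, edgeR adjusted p 4.1e-21). H2-Aa (chr17:34282744-34287823, minus strand) was at 32.9 and 33.4 CPM in 4-gene astroglia, against 0.516 and 0.148 CPM in other astroglia, a log2 fold change of 6.67 ± 0.42. H2-Eb1 (chr17:34305867-34316674, plus strand) was at 41.7 and 51.2 CPM in 4-gene astroglia, against 0.43 and 0.593 CPM in other astroglia, a log2 fold change of 6.48 ± 0.29. The 3 chains thus lay far apart between the classes in both libraries. Cd74 was at 46.6 and 43.2 CPM in 4-gene astroglia, against 0.86 and 0.519 CPM in other astroglia, a log2 fold change of 6.04 ± 0.25. Together these 4 genes had 506 and 610 UMIs in 4-gene astroglia and only 55 and 51 in other astroglia. The fold changes of H2-Aa, H2-Eb1 and Cd74 thus rest on few UMIs in other astroglia. H2-DMa was at 40.9 and 43.2 CPM in 4-gene astroglia, against 5.59 and 5.71 CPM in other astroglia, and overlaps Brd2 on the other strand. Ciita had 11 and 18 UMIs in 4-gene astroglia, against 4 and 6 in the far larger other astroglia (log2 fold change 3.78 ± 0.60, edgeR adjusted p 1.2e-05), and overlaps Dexi on the other strand. Against other astroglia without division and C1q UMIs, the log2 fold change was 4.66 for H2-Ab1, 5.84 for H2-Aa, 6.74 for H2-Eb1 and 6.94 for Cd74.

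Class II genes are known to share promoter elements upstream of their start, among them the X box and the Y box, an inverted CCAAT sequence. The Y box, here the 7 letters TGATTGG on either strand, is in capitals in 160 bases upstream of 3 genes that were higher in 4-gene astroglia (RefSeq, GRCm38.p6, 5′ to 3′ along each gene). The windows lie at chr17:34287824-34287983 on the minus strand for H2-Aa, and on the plus strand at chr17:34305707-34305866 for H2-Eb1 and at chr17:34153031-34153190 for H2-DMb1.
H2-Aa: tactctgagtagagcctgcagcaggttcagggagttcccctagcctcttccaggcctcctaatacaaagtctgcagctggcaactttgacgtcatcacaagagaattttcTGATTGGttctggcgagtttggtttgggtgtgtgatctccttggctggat
H2-Eb1: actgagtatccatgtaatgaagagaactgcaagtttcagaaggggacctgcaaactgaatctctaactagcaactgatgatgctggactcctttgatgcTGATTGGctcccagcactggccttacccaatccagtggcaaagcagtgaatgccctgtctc
H2-DMb1: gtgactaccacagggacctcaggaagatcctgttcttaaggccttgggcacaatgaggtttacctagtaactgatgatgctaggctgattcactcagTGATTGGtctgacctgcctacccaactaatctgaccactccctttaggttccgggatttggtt
In these windows the letters end at bases -44, -55 and -57 from the start. Of 7 class II genes with a promoter in the table, 6 held the letters (H2-Aa, H2-Eb1, H2-DMb1, H2-DMb2, H2-Oa and H2-Ob), as did 1947 of 32851 windows of that length (5.93%). The 7th, H2-DMa, did not hold them in either of its 2 windows, and the table has no entry for H2-Ab1 or Cd74. Of the 6, H2-Oa, H2-Ob and H2-DMb2 had 0 UMIs in 4-gene astroglia in both libraries. H2-DMb1 and H2-DMb2 are near-identical copies, and the sources used here do not say how reads that match both were counted. With that limit, H2-DMb1 was at 11.2 and 10.9 CPM in 4-gene astroglia, against 0.344 and 0.371 CPM in other astroglia.

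Microglia held a different set of these transcripts. H2-Ab1 was at 81.9 and 93.8 CPM in 4-gene astroglia and at 4.23 and 12.2 CPM in microglia. H2-Eb1 was at 41.7 and 51.2 CPM in 4-gene astroglia, and at 0 and 0.838 CPM in microglia. H2-Aa was at 32.9 and 33.4 CPM in 4-gene astroglia and at 0 and 1.68 CPM in microglia. Cd74 lay closer, at 46.6 and 43.2 CPM in 4-gene astroglia and 57.4 and 59.1 CPM in microglia. H2-DMa was lower in 4-gene astroglia, at 40.9 and 43.2 CPM, than in microglia, at 120 and 93.5 CPM. H2-DMb2 had 0 UMIs in 4-gene astroglia and was at 9.06 and 4.61 CPM in microglia. These class levels were compared as values, with no test.

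Class II transcripts were detected in part of the 4-gene astroglia, in shares that depended on depth. At least 1 UMI of H2-Aa, H2-Ab1, H2-Eb1 or Cd74 was found in 72 (26.2%, 95% interval 21.1 to 31.8) and 97 (35.9%, 30.2 to 42.0) of them. In other astroglia the share was 4.01% (2.95 to 5.31) and 3.08% (2.16 to 4.23), and in glutamatergic neurons, at the depths given above, it was 0.375% and 0.346%. In microglia, at median depths of 11702.5 and 14610.5 UMIs, it was 36.0% and 46.8%. Thinned to 2000 UMIs, the share was 16.9% and 18.9% in 4-gene astroglia, against 1.29% and 0.712% in other astroglia and 15.2% and 11.04% in microglia. Before thinning, at least 2 of the 4 genes had a UMI in 1.47% and 6.41% of microglia and in 16.4% and 23.0% of 4-gene astroglia. The 10 highest cells held 55.7% and 40.5% of these UMIs, with up to 48 and 50 UMIs in a cell. No microglial cell held more than 16. The 4-gene cells with such a UMI had medians of 7783.5 and 9078 UMIs in all, and those without had 8852 and 9723.

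The number of rule genes is part of the rule, so the next values have no test. Of cells with all 4 rule genes, 35.7% and 54.4% had a UMI of the 4 class II genes, against 19.6% and 22.4% of cells with exactly 3. The 95% intervals were 26.9 to 45.3 and 44.8 to 63.7 with 4 genes, and 13.8 to 26.6 and 16.2 to 29.8 with 3. In the 267 and 259 4-gene cells with no UMI of 7 of the microglial markers, the summed level of the 4 class II genes was 207 and 229 CPM, against 203 and 222 CPM in all 4-gene astroglia. Without cells marked as doublets it was 233 and 261 CPM. Class I genes were given beside them, chosen after their values had been seen. H2-K1, a class I heavy chain, was at 41.3 and 45.8 CPM in 4-gene astroglia and 48.2 and 48.6 CPM in other astroglia. B2m, the light chain of class I, was at 25.7 and 30.2 CPM in 4-gene astroglia and 34.1 and 38.0 CPM in other astroglia. H2-D1, another heavy chain, was at 34.1 and 36.0 CPM in 4-gene astroglia and 31.1 and 32.5 CPM in other astroglia. None of the 3 passed the edgeR test in either comparison with other astroglia. Without the Aqp4 condition, H2-K1 was higher by 0.77 on the log2 scale, and H2-D1 (-0.27) and B2m (-0.41) were lower.

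**Figure D2:**
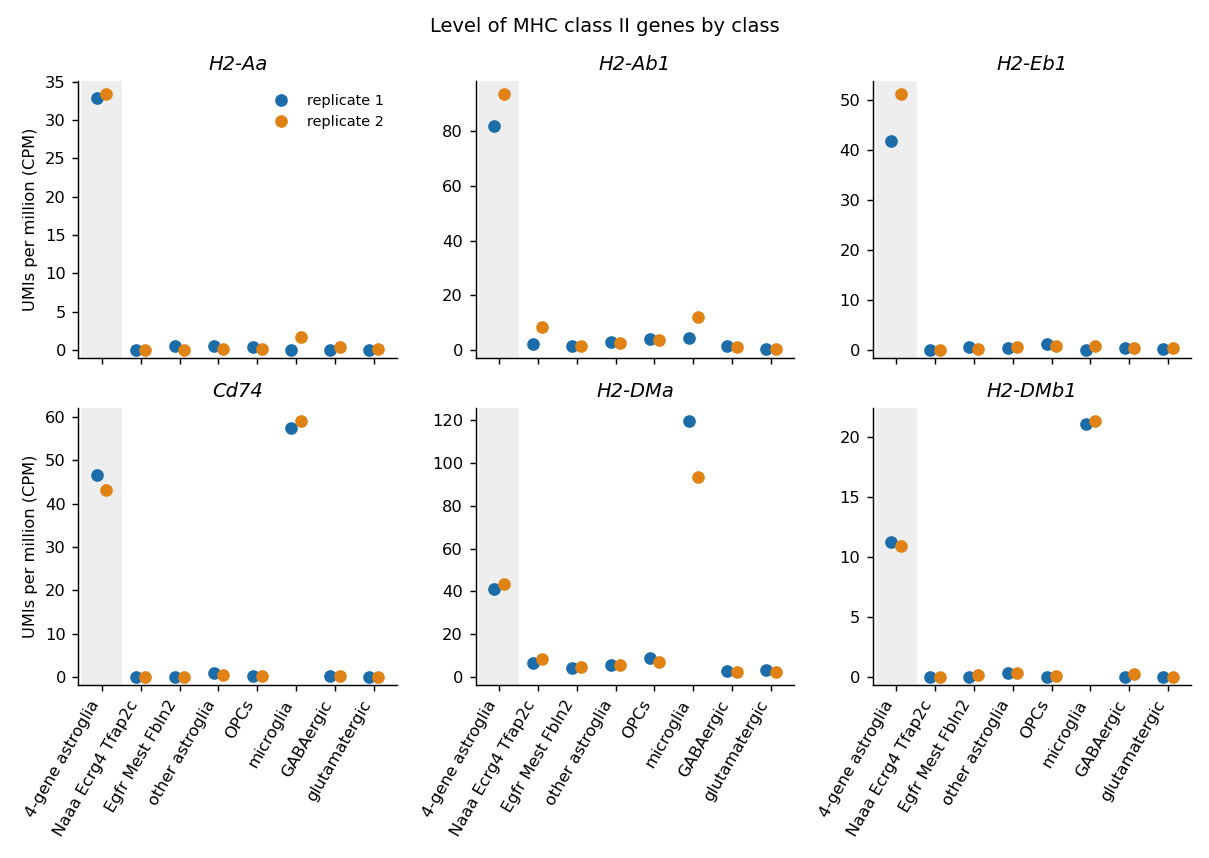
Level of 6 genes of the class II pathway in CPM (y axis, linear and separate for each gene) in 8 classes of cells (x axis), with 1 point for each library. H2-Ab1 was at 81.9 and 93.8 CPM in 4-gene astroglia and at most 12.2 CPM in microglia, whereas H2-DMa was highest in microglia at 120 and 93.5 CPM.

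Other genes with large differences had varied roles. Selenom, which encodes a selenoprotein of the endoplasmic reticulum, was at 1145 and 1042 CPM in 4-gene astroglia, against 205 and 211 CPM in other astroglia (log2 fold change 2.41 ± 0.04). Fxyd6, a regulator of the sodium pump, was at 1181 and 1106 CPM in 4-gene astroglia, against 351 and 321 CPM in other astroglia (log2 fold change 1.78 ± 0.04). These 2 genes were named after their values had been seen. Cidea, whose protein coats lipid droplets in fat cells, was at 51.0 and 46.9 CPM in 4-gene astroglia, against 2.32 and 2.74 CPM in other astroglia. Hspb8 was at 83.9 and 95.2 CPM in 4-gene astroglia, against 7.74 and 7.64 CPM in other astroglia, a log2 fold change of 3.56 ± 0.16. Col9a1, a chain of collagen IX, was at 78.7 and 92.3 CPM in 4-gene astroglia, against 8.08 and 7.64 CPM in other astroglia, a log2 fold change of 3.47 ± 0.12. None of these values overlapped between the classes, which says little with 2 libraries in each.

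Further down the list came Mylip (log2 fold change 3.24 ± 0.20), a ubiquitin ligase that lowers the LDL receptor, and Col23a1 (3.08 ± 0.16), a membrane collagen. Nrp2, a receptor for class 3 semaphorins, was at 34.1 and 34.9 CPM in 4-gene astroglia, against 4.04 and 4.30 CPM in other astroglia. Inpp5j, an inositol phosphatase, was at 29.7 and 30.2 CPM in 4-gene astroglia, against 3.61 and 4.30 CPM in other astroglia, but its exons overlap those of the rule gene Pla2g3. Emb, which escorts lactate transporters to the membrane, was at 27.7 and 28.3 CPM in 4-gene astroglia, against 4.82 and 6.82 CPM in other astroglia. Apod, a carrier of small lipids and a fibroblast marker, was at 6.02 and 7.27 CPM in 4-gene astroglia, against 0.086 and 0.297 CPM (1 and 4 UMIs) in other astroglia. Its log2 fold change of 5.06 was 0.84 without the Aqp4 condition on other astroglia and missed the threshold there (edgeR adjusted p 0.057). Exons of Emb, and of Bmpr1a, Lef1, Tnc, Synm, Slc7a10, Chchd10 and Junb named further on, overlap a gene on the other strand, with the limit given for Pla2g3.

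Genes of the BMP pathway were higher in 4-gene astroglia more often than lower. BMPs bind receptors that activate Smad proteins, which switch on Id genes, Msx genes and the inhibitory Smads. Of 30 such genes tested, Nog left out, 15 had higher and 2 lower levels, where 7.6% and 8.12% of all genes tested did. The median log2 fold change was 0.56 beside -0.01 over all genes tested. Against other astroglia without division and C1q UMIs, 13 and 2 did, where 4.94% and 3.49% of all genes tested did, and the median was 0.39.

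Among the targets, Id3 was at 2993 and 2762 CPM in 4-gene astroglia, against 1606 and 1450 CPM in other astroglia (log2 fold change 0.93 ± 0.04). Id4 (0.96), Id1 (0.50) and Id2 (0.50) were higher as well, with log2 fold changes in parentheses. Msx1 was at 12.9 and 14.9 CPM in 4-gene astroglia, against 2.67 and 2.15 CPM in other astroglia (log2 fold change 2.55 ± 0.30). Msx2 was at 5.62 and 10.9 CPM in 4-gene astroglia, against 0.344 and 0.519 CPM in other astroglia (log2 fold change 4.24 ± 0.53). The inhibitory Smads were higher too. Smad6 was at 17.3 and 22.5 CPM in 4-gene astroglia, against 2.58 and 3.49 CPM in other astroglia, and Smad7 had a log2 fold change of 1.18 ± 0.12. Smad9, a signalling Smad, was higher by 1.61 ± 0.31 on the log2 scale, and Smad5 had a log2 fold change of -0.44 ± 0.09. Smad9 missed the threshold without replicate 1 (1.47), and Smad5 did without replicate 2 (-0.30).

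The receptors Bmpr1a, Bmpr1b and Bmpr2 were all higher. Bmpr1a was at 242 and 273 CPM in 4-gene astroglia, against 129 and 153 CPM in other astroglia (log2 fold change 0.89 ± 0.05). Bmpr2 had a log2 fold change of 0.90 and Bmpr1b of 0.79. Bmper, a secreted BMP-binding protein, was higher by 1.12 ± 0.19 on the log2 scale. The ligand Bmp7 was at 21.3 and 25.4 CPM in 4-gene astroglia, against 34.0 and 34.6 CPM in other astroglia (log2 fold change -0.53 ± 0.14, edgeR adjusted p 0.0077). It missed the threshold with either library left out (-0.44 without replicate 1 and -0.65 without replicate 2). The ligands Bmp2, Bmp3 and Bmp4 and the antagonists Fst, Chrd and Chrdl1 did not pass the test.

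In the Wnt pathway, 8 of 30 genes tested had higher and 5 lower levels, where 7.6% and 8.12% of all genes tested did, and the median log2 fold change was 0.15. The counts were the same without division and C1q UMIs in other astroglia, where 4.94% and 3.49% of all genes did. Rspo1, a secreted protein that strengthens Wnt signals, was at 7.63 and 14.9 CPM in 4-gene astroglia, against 0.946 and 1.04 CPM in other astroglia. Notum, a secreted Wnt inhibitor, was higher by 2.87 ± 0.32 on the log2 scale. The nuclear partners of beta-catenin were higher as well, with Lef1 at 30.5 and 28.7 CPM in 4-gene astroglia, against 9.63 and 11.2 CPM in other astroglia, and Tcf7 at a log2 fold change of 1.34 ± 0.21. Among the lower genes were Fzd9, a receptor (-0.67 ± 0.18), Sfrp5 (-1.87 ± 0.63, edgeR adjusted p 0.04), and Sfrp1, a secreted inhibitor (-0.63 ± 0.07, but 0.00509 when other astroglia were taken without the Aqp4 condition). Sfrp5 missed the threshold with either library left out (-1.60 without replicate 1 and -2.20 without replicate 2), and Fzd9 did without replicate 1 (-0.50). Of 22 Notch genes, 6 were higher and 2 lower, or 4 and 3 without division and C1q UMIs in other astroglia. Hey1, a Notch target, was at 124 and 143 CPM in 4-gene astroglia, against 58.3 and 61.8 CPM in other astroglia. Of 11 Hedgehog genes 1 was higher and 2 lower, and of 22 FGF and EGF receptor genes 4 were higher and 4 lower, or 2 and 5. Egfr was at 45.0 and 60.7 CPM in 4-gene astroglia, against 106 and 117 CPM in other astroglia.

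Of 28 matrix genes of the brain, 9 were higher and 1 lower, where 7.6% and 8.12% of all genes tested were. The counts were 6 and 2 without division and C1q UMIs in other astroglia, where 4.94% and 3.49% of all genes were. Tnc, the matrix protein tenascin C, was at 989 and 1001 CPM in 4-gene astroglia, against 412 and 393 CPM in other astroglia (log2 fold change 1.32 ± 0.04). Ncan, the proteoglycan neurocan, was at 2144 and 2245 CPM in 4-gene astroglia, against 1027 and 1032 CPM in other astroglia. Sparcl1 (log2 fold change 1.15) and Gpc6 (1.32), both secreted by astrocytes and known to act on synapses, were higher too. Ptprz1, a receptor phosphatase that carries chondroitin sulfate, was at 3528 and 4053 CPM in 4-gene astroglia, against 5918 and 6464 CPM in other astroglia (log2 fold change -0.69 ± 0.05), but turned to 0.23 when other astroglia were taken without the Aqp4 condition.

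Of 19 filament and reactive astrocyte genes, 9 were higher and 1 lower, beside 7.6% and 8.12% of all genes tested. The counts were 7 and 1 without division and C1q UMIs in other astroglia, beside 4.94% and 3.49% of all genes. Vim, the filament vimentin, was at 1094 and 1016 CPM in 4-gene astroglia, against 909 and 845 CPM in other astroglia. Synm, the filament synemin, had a log2 fold change of 1.06 ± 0.28. Nes, the filament of neural stem cells, was at 143 and 149 CPM in 4-gene astroglia, against 224 and 251 CPM in other astroglia. Vim and Synm missed the threshold without replicate 1 and without replicate 2, at 0.27 and 0.29 for Vim and at 1.00 and 1.13 for Synm on the log2 scale. Filament genes thus did not all go with Gfap. Cd14, a co-receptor of innate immunity, was at 15.7 and 19.6 CPM in 4-gene astroglia, against 6.62 and 4.00 CPM in other astroglia (log2 fold change 1.78 ± 0.25). Aspg, an asparaginase, was at 6.42 and 5.09 CPM in 4-gene astroglia, against 0.172 and 0.371 CPM in other astroglia.

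Relatives of Serpinf1 and Pla2g3 differed in both directions. Of 14 serpins and receptors of the Serpinf1 product, 3 were higher and 2 lower, beside 7.6% and 8.12% of all genes tested. The counts were 2 and 1 without division and C1q UMIs in other astroglia, beside 4.94% and 3.49% of all genes. Plxdc2, a receptor for that product, was at 65.4 and 65.4 CPM in 4-gene astroglia, against 17.9 and 21.5 CPM in other astroglia (log2 fold change 1.74 ± 0.12). Serpinb1a, an inhibitor of proteases of white blood cells, was at 11.2 and 9.45 CPM in 4-gene astroglia, against 3.35 and 1.93 CPM in other astroglia (log2 fold change 2.01 ± 0.41). Serpine2, a secreted protease inhibitor, was at 604 and 613 CPM in 4-gene astroglia, against 730 and 724 CPM in other astroglia. Serpinb1a missed the threshold without replicate 2 (1.77), and Serpine2 did with either library left out (-0.24 and -0.25). Of 16 phospholipase A2 and prostanoid genes, 2 were higher and 3 lower, or 1 and 3 in the other version, beside the same shares of all genes. Ptgs2, the inducible cyclooxygenase, rested on 2 and 8 UMIs in 4-gene astroglia and 1 and 2 in other astroglia. Pla2g7, a secreted phospholipase A2, was at 431 and 428 CPM in 4-gene astroglia and 460 and 432 CPM in other astroglia and did not pass the test. Its log2 fold change of -0.04 became -0.31 and passed without division and C1q UMIs in other astroglia, and turned to 1.57 without the Aqp4 condition. Ptgds, which makes prostaglandin D2, was at 4.01 and 5.45 CPM in 4-gene astroglia, against 14.3 and 14.8 CPM in other astroglia (log2 fold change -1.60 ± 0.31).

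**Figure D3:**
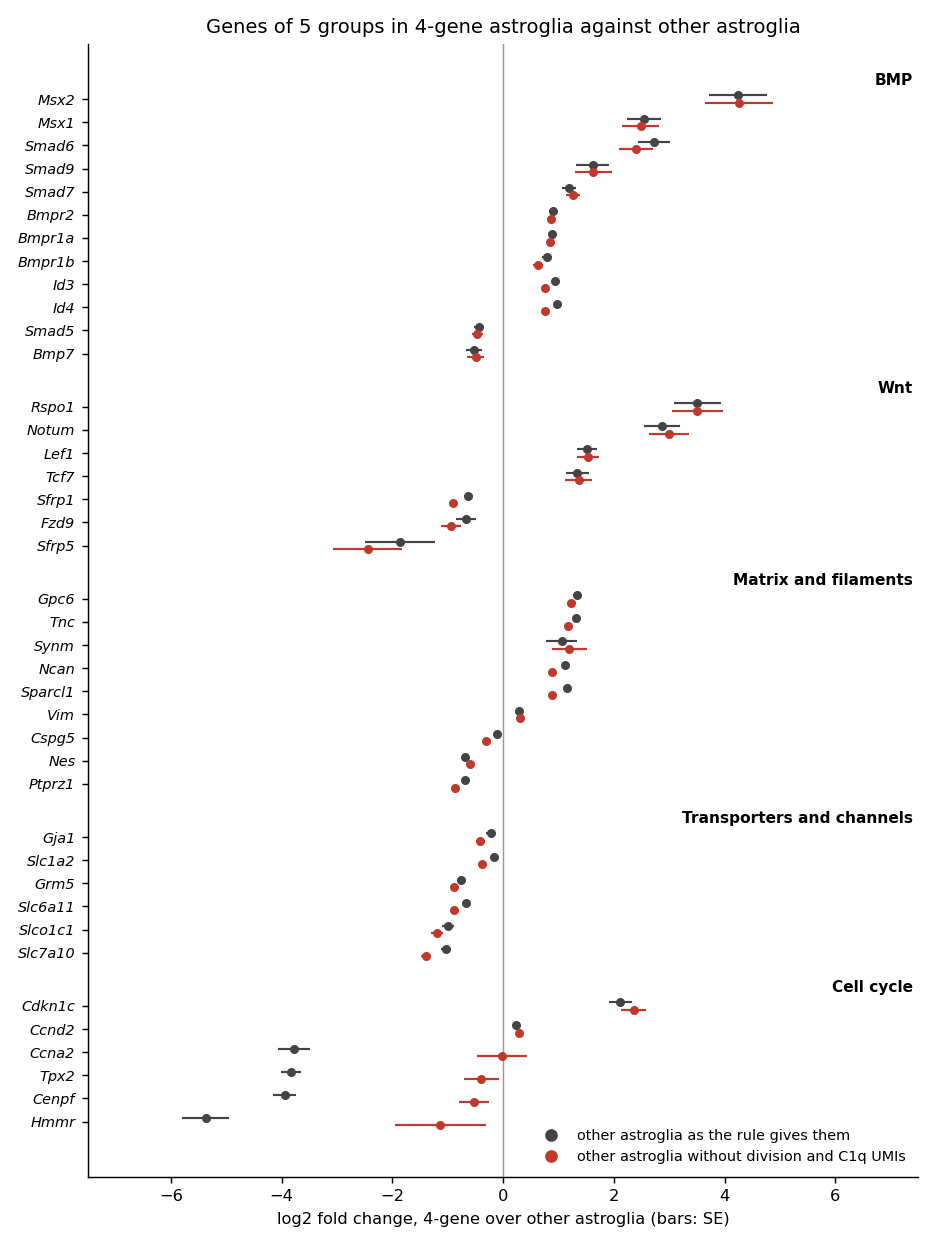
Log2 fold change of 4-gene astroglia over other astroglia (x axis, bars give the SE from edgeR) for genes of 5 groups (y axis). Grey points use other astroglia as the rule gives them, and red points use those without division and C1q UMIs. In these 2 versions Cenpf, a division gene, was at -3.94 and -0.53, Msx2 at 4.24 and 4.26, and Slc7a10 at -1.03 and -1.39.

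Which genes were lower depended on the other astroglia used. Of the 12 named genes furthest down in the comparison the rule gives, all but Lyz2, a lysozyme of macrophages, are genes of cell division. Cenpf, a kinetochore protein, was at 9.63 and 9.45 CPM in 4-gene astroglia, against 129 and 167 CPM in other astroglia. Hmmr, a spindle protein, was at 0.803 and 0.363 CPM (2 and 1 UMIs) in 4-gene astroglia, against 21.9 and 26.6 CPM in other astroglia. Without division and C1q UMIs in other astroglia, Cenpf had a log2 fold change of -0.53 ± 0.27 (edgeR adjusted p 0.29), and Tpx2 and Ccna2 did not pass either. All 18 genes of DNA replication and S phase were lower in the comparison the rule gives, where 8.12% of all genes tested were. None of 18 passed in either direction in the other, where 8.43% of all genes tested did.

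Other genes were furthest down without division and C1q UMIs in other astroglia. Luzp2, a leucine zipper gene, was at 139 and 170 CPM in 4-gene astroglia, against 436 and 424 CPM in these other astroglia (log2 fold change -1.47 ± 0.06, edgeR adjusted p 1.3e-23). Sox1ot, a transcript of the Sox1 locus, was at 18.1 and 17.8 CPM in 4-gene astroglia, against 55.9 and 57.6 CPM in these other astroglia. Dbx2, a homeobox gene, had a log2 fold change of -1.26 ± 0.13. When the Aqp4 condition was dropped, Luzp2 (-0.72) and Sox1ot (-0.79) still passed the test and Dbx2 (-0.22) did not.

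Of 19 genes for glutamate, potassium and gap junctions, 13 were lower and 0 higher, where 3.49% and 4.94% of all genes tested were. In the comparison the rule gives, 11 of 19 were lower and 1 higher, where 8.12% and 7.6% of all genes tested were. But 6 of them named here turned round when other astroglia were taken without the Aqp4 condition. That wider class also took in cells otherwise gated as oligodendrocyte precursor cells. Slc7a10, an exchanger of serine and alanine, was at 63.4 and 49.1 CPM in 4-gene astroglia, against 151 and 143 CPM in other astroglia without division and C1q UMIs (log2 fold change -1.39 ± 0.10), and was higher by 0.43 without the Aqp4 condition. Slco1c1, a thyroid hormone carrier, was at 58.2 and 73.8 CPM in 4-gene astroglia, against 165 and 140 CPM in these other astroglia, and was higher by 0.51 without the Aqp4 condition. Slc6a11, a GABA transporter, had a log2 fold change of -0.90 ± 0.05, against 0.82 without the Aqp4 condition. Grm5, a metabotropic glutamate receptor, had -0.88 and 0.28 on the same scales. Slc1a2, the glutamate transporter GLT-1, had -0.38 and 1.25. Gja1, the gap junction protein connexin 43, had -0.41 and 1.47. Slc1a2 and Gja1 also missed the threshold in the comparison the rule gives with either library left out, at -0.19 and -0.15 for Slc1a2 and -0.22 and -0.23 for Gja1. The same turn was seen for the tight junction gene Cldn10 (-1.23 and 0.48), the mitochondrial gene Chchd10 (-1.46 and 0.35) and the growth factor gene Hgf (-1.39 and 0.35).

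Of 12 markers of radial glia and neural stem cells, 4 were higher (Tnc, Hopx, Pax6 and Vim) and 1 lower (Nes). Without division and C1q UMIs in other astroglia, the same 4 were higher and 3 were lower (Nes, Hes1 and Hes5), with a median log2 fold change of -0.09. Over all genes tested, 7.6% were higher and 8.12% lower, or 4.94% and 3.49% in the second version. Hopx was at 114 and 149 CPM in 4-gene astroglia, against 74.0 and 56.7 CPM in other astroglia, and Pax6 was at 189 and 187 CPM in 4-gene astroglia, against 145 and 140 CPM in other astroglia. Ccnd2, a cyclin of the G1 phase, was higher by 0.23 ± 0.05 on the log2 scale, but missed the threshold without replicate 1 (0.13). Of 11 D-type cyclins and inhibitors of their kinases 2 were higher and 3 lower, or 3 and 0 without division and C1q UMIs in other astroglia. Cdkn1c, which encodes the cell cycle inhibitor p57, was at 32.9 and 102 CPM in 4-gene astroglia, against 14.5 and 17.4 CPM in other astroglia. Its level in replicate 2 was far above that in replicate 1, and its log2 fold change of 2.12 ± 0.21 turned to -0.26 in cells thinned to 2000 UMIs. General astrocyte genes such as Aldh1l1, a folate enzyme, at 420 and 420 CPM in 4-gene astroglia, against 299 and 321 CPM in other astroglia, were higher. Aldoc, a glycolytic enzyme, had a log2 fold change of 0.65 ± 0.04. Of 12 general astroglial markers 7 were higher and 2 lower, or 2 and 5 without division and C1q UMIs in other astroglia.

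Early genes rise within minutes of a stimulus and also while tissue is dissociated. Of 18 tested, 14 were higher and 0 lower, or 8 and 0 without division and C1q UMIs in other astroglia. Over all genes tested, 7.6% were higher and 8.12% lower, or 4.94% and 3.49% in the second version. Fos was at 4125 and 3865 CPM in 4-gene astroglia, against 2396 and 2219 CPM in other astroglia (log2 fold change 0.81 ± 0.03). Junb had a log2 fold change of 0.74, Atf3 of 1.25 and Ier3 of 0.89. All classes went through the same dissociation and sort within a library, and the part of these genes in the other results was not tested. Of 22 genes of cholesterol and lipid handling 8 were higher and 1 lower, or 4 and 1. Of 22 pallial and hippocampal patterning factors 5 were higher and 4 lower, or 5 and 5. Of 11 subpallial factors 1 was higher and 5 lower, or 0 and 1.

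Levels were then followed by the number of rule genes detected, in cells with at least 2 UMIs of Slc1a3 and of Aqp4 and no division or C1q UMIs. From 0 to 4 genes detected, H2-Ab1 was at 2.95, 3.38, 15.0, 57.8 and 119 CPM in replicate 1, and at 2.32, 4.87, 11.8, 56.5 and 137 CPM in replicate 2. The levels were higher at each further gene in both libraries, with the smallest step between 0 and 1 genes. Luzp2 ran downward, at 434, 437, 347, 187 and 87.7 CPM in replicate 1 and 450, 403, 338, 213 and 127 CPM in replicate 2. Slc7a10 did likewise, at 172, 136, 115, 91.8 and 39.2 CPM and at 149, 138, 122, 60.3 and 40.6 CPM. Depth also differed between these cells. From 0 to 4 genes the median was 7886.5, 8516, 9001.5, 9157 and 8530 UMIs in replicate 1, and 9397, 9680, 9754, 10202.5 and 9498.5 UMIs in replicate 2. It was thus higher at each step up to 3 genes and lower again with 4, and its part in the series was not tested. The number of rule genes stands in part for their levels, so the series is a description.

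**Figure D4:**
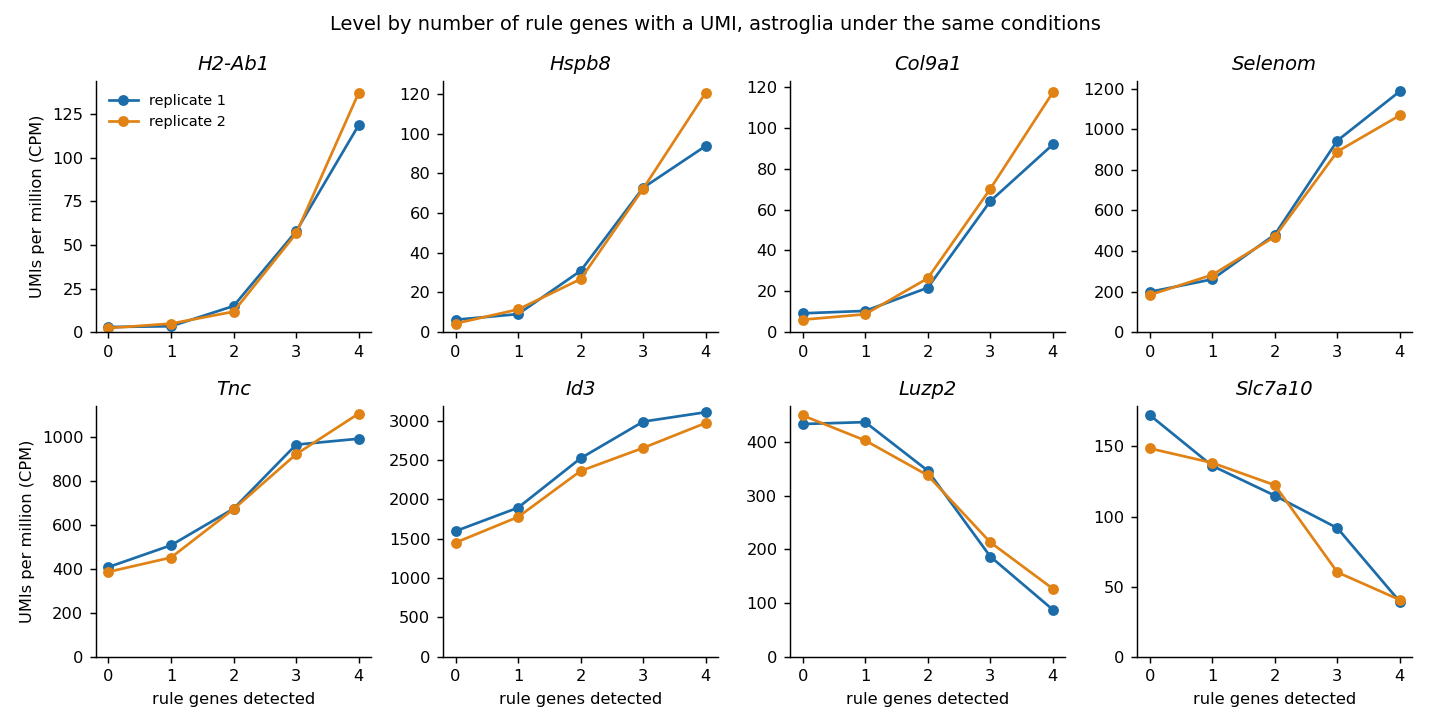
Level of 8 genes in CPM (y axis, linear from 0) by the number of rule genes with a UMI (x axis, 0 to 4), in cells with at least 2 UMIs of Slc1a3 and Aqp4 and no division or C1q UMIs, with 1 line for each library. H2-Ab1 reached 119 and 137 CPM with 4 genes, and Luzp2 was lowest there, at 87.7 and 127 CPM.

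The 2 further classes were astroglia with at least 2 of the genes Naaa, Ecrg4 and Tfap2c (70 and 69 cells) and with at least 2 of Egfr, Mest and Fbln2 (772 and 828 cells). Median depths were 6590 and 7291 UMIs in the Naaa class and 10228 and 10959 UMIs in the Egfr class. Both also had Slc1a3, no division or C1q UMIs and at most 1 of the 4 rule genes. Neither rule asked for Aqp4. Once both were set apart, cells gated by Pdgfra as oligodendrocyte precursor cells outside them fell from 3826 and 3944 to 3691 and 3800. Of the 4-gene cells, 93 (33.8%) and 107 (39.6%) also met the Egfr rule, and 4 (1.45%) and 12 (4.44%) met the Naaa rule. Of the 1148 and 1170 other astroglia, 763 and 751 met neither rule, and those with division or C1q UMIs could not meet one. The overlap is thus not particular to the 4-gene cells. The comparisons with the 2 further classes share the 4-gene cells and come from the same fit. As a description, Naaa was at 18.9 and 21.4 CPM in 4-gene astroglia, against 258 and 221 CPM in the Naaa class. Egfr was at 45.0 and 60.7 CPM in 4-gene astroglia, against 157 and 154 CPM in the Egfr class.

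Against the Naaa class, 774 of 15043 genes were higher (5.15%) and 666 lower (4.43%) in 4-gene astroglia, 9.57% in all. H2-Eb1, Cd74 and H2-Aa had 0 UMIs in the Naaa class and were at least 14.4-fold, 13.8-fold and 10.3-fold higher in 4-gene astroglia, with the floor set at 3 UMIs over that class. Kcnj6, a potassium channel whose exons overlap Gm41505, had 157 and 179 UMIs in 4-gene astroglia and 1 in the Naaa class, a ratio of 59.4 (exact 95% interval 10.6 to 2353, counting error only). Ncan was at 2144 and 2245 CPM in 4-gene astroglia, against 538 and 489 CPM in the Naaa class (log2 fold change 2.22 ± 0.09). Sparcl1 (2.11), Id3 (1.72) and Tnc (1.49) were higher as well, with log2 fold changes in parentheses. Of 30 BMP genes 13 had higher and 3 lower levels, and the median log2 fold change was 1.37, or 0.46 with genes at 0 in the Naaa class taken at their bound.

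Of 12 markers of radial glia and neural stem cells, 6 were lower than in the Naaa class (Hopx, Pax6, Nr2e1, Hes1, Sox2 and Vim) and 3 higher (Tnc, Hes5 and Fabp7). Over all genes tested, 4.43% were lower and 5.15% higher. Their summed level was 26011 and 24566 CPM in 4-gene astroglia, against 17417 and 16448 CPM in the Naaa class. Hopx was at 114 and 149 CPM in 4-gene astroglia, against 432 and 337 CPM in the Naaa class (log2 fold change -1.41 ± 0.14). Shroom3, which shapes the apical side of epithelial cells, was at 0.803 and 2.54 CPM in 4-gene astroglia, against 45.2 and 47.5 CPM in the Naaa class (-4.63 ± 0.46). Ccdc114, a dynein docking protein of motile cilia, had a log2 fold change of -3.80 ± 0.57. Foxj1, the master factor of motile cilia, was at 8.43 and 12.4 CPM in 4-gene astroglia, against 22.6 and 31.0 CPM in the Naaa class (-1.24 ± 0.40, edgeR adjusted p 0.039). Of 6 ependymal markers tested 4 were lower, and of 23 pallial and hippocampal factors 9 were lower and 1 higher, with Emx1 among the lower ones (-1.76 ± 0.36). Foxj1 missed the threshold with either library left out (-1.20 and -1.29), and Emx1 did without replicate 2 (-1.52). Either library alone gave 411 to 437 higher and 305 to 320 lower genes.

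Against the Egfr class, 1514 of 15043 genes were higher (10.1%) and 1601 lower (10.6%), 20.7% in all. Either library alone gave 913 and 917 higher and 831 to 868 lower genes. H2-Ab1 was at 81.9 and 93.8 CPM in 4-gene astroglia, against 1.44 and 1.26 CPM in the Egfr class (log2 fold change 6.03 ± 0.22). Cidea (5.37 ± 0.26) and Col9a1 (4.33 ± 0.18) were higher too, and Cd74 was at 46.6 and 43.2 CPM in 4-gene astroglia, with 0 and 1 UMIs in the Egfr class. Smad6 was at 17.3 and 22.5 CPM in 4-gene astroglia, against 1.69 and 2.30 CPM in the Egfr class. Of 30 BMP genes 16 had higher and 4 lower levels, and the median log2 fold change was 0.72 beside -0.03 over all genes tested. Of 12 general astroglial markers 11 were higher and 0 lower.

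All 8 markers of oligodendrocyte precursor cells were lower than in the Egfr class, where 10.6% of all genes tested were. The Egfr rule did not ask for Aqp4 and took in cells otherwise gated as oligodendrocyte precursor cells. The part of those cells in these markers and in the general astroglial markers was not tested. Olig1 was at 604 and 606 CPM in 4-gene astroglia, against 1546 and 1398 CPM in the Egfr class (log2 fold change -1.27 ± 0.05). Olig2 had a log2 fold change of -1.17 ± 0.06. Ptgds was at 4.01 and 5.45 CPM in 4-gene astroglia, against 28.5 and 45.1 CPM in the Egfr class, and Dll1, a Notch ligand, was at 6.02 and 12.7 CPM in 4-gene astroglia, against 36.8 and 35.8 CPM in the Egfr class. Of 18 genes of DNA replication and S phase, 16 were lower and 0 higher, although both classes were chosen without Mki67 and Top2a UMIs.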

How the data were processed

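Droplet (10x Chromium Single Cell 3') libraries of sorted pallial cells were analysed, 2 libraries in 1 group. The deposited values are UMI counts (genes by barcodes, not normalized), which Cell Ranger 6.0.2 wrote per the file headers. The build was mm10, and R 4.1.0 and Seurat 4.1.0 were used for steps not named, per the submitters' processing notes. The annotation release and the strand setting of counting are not given in the sources used here. Gene positions came from GENCODE vM21, in which 32158 of 32285 IDs matched, and promoters from RefSeq (GRCm38.p6).

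Barcodes with at least 500 genes and at most 10% mitochondrial UMIs were kept. Scrublet (expected rate 10%) was run in each library, and the cells it marked were removed in an alternative only. Counts of each class were summed in each library and tested with edgeR 4.0.16 (R 4.3.3): TMM scaling, filterByExpr, quasi-likelihood F test and a Benjamini-Hochberg adjusted p of 0.05. Classes from 1 library were paired by a library block, since they were sorted and captured together. Sums of oligodendrocyte precursor cells, microglia, GABAergic and glutamatergic neurons entered the fit for its spread. Genes of the cell rules and mitochondrial genes were not tested. The reference sum for TMM was chosen on simulated data. SE is the absolute log2 fold change over the square root of F. DESeq2 1.42.0 was an alternative. Other steps used Python 3.11.15, scanpy 1.11.5 and scipy 1.17.1.

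CPM is a share of the class's UMIs. Intervals are exact Clopper-Pearson 95% intervals, and intervals and floors (3 counts) cover counting error only. Oligodendrocyte precursor cells had median depths of 8519.5 and 9344 UMIs and GABAergic neurons of 6949 and 7223, in the fit against other astroglia. Median depths of the other classes stand with the results. With the library block, p-values measure how much the differences between classes varied between the 2 samples, over all classes in the fit. Nothing establishes that the libraries come from separate animals, so part of that variation may arise in handling. Named genes were the 12 with the largest change in each direction (5 for each of the other comparisons) at a mean of at least 20 CPM, up to 4 per list and direction, and relatives of the rule genes. H2-DMb1, Ciita, H2-D1, H2-K1, B2m, Selenom and Fxyd6 were added after their values were seen. The cells, lists and tests were chosen with earlier results of these data known.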

Additional observations from a re-analysis of the deposited data

How the results depend on the processing

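The share of 4-gene astroglia averaged 2.46% over the libraries. It was 1.02% with all 4 genes asked for, 5.26% with 2, 2.63% at a minimum of 1000 genes, 2.64% at a maximum of 5% mitochondrial UMIs, 2.34% without doublets and 0.896% in cells thinned to 2000 UMIs. Against other astroglia, the 1113 higher and 1189 lower genes became 695 and 625 without the replicate block, 724 and 512 without division and C1q UMIs in other astroglia, and 689 and 474 with the same conditions on both classes, chosen after seeing the data. They became 3005 and 3082 without the Aqp4 condition and 136 and 91 in thinned cells, which have fewer UMIs. With a library left out they were 553 to 607 and 543 to 644, and the lone sums were assumed to vary like the other classes. Against the Naaa class, thinned cells gave 160 higher and 67 lower genes, and a library left out gave 411 to 437 and 305 to 320. Against the Egfr class, thinned cells gave 256 and 218, the fit without the block gave 937 lower genes, and a library left out gave 913 to 917 higher and 831 to 868 lower ones. DESeq2, RLE size factors, no filter on low counts, doublets removed and barcodes shared by the libraries left out kept each count within 1.5 times.

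Log2 fold changes against other astroglia turned round without the Aqp4 condition for Chchd10 (0.35), Slc7a10 (0.43), Slco1c1 (0.51), Hgf (0.35), Cldn10 (0.48), Sfrp1 (0.00509), Ptprz1 (0.23), Slc6a11 (0.82), Grm5 (0.28), Slc1a2 (1.25), Gja1 (1.47), Pla2g7 (1.57), H2-K1 (0.77) and H2-D1 (-0.27). Pla2g7 also turned to 0.016 when 4-gene cells too needed 2 UMIs of Aqp4 and Slc1a3 and to 0.021 at 2 of 4 genes. In thinned cells Cdkn1c (-0.26) and H2-D1 (-0.22) turned round. Without the Aqp4 condition, the other astroglia also took in cells otherwise gated as oligodendrocyte precursor cells. The cause of these turns was not tested. Of the called genes named, 39 of 83 kept their call and direction under all alternatives run against other astroglia, 10 of 19 against the Naaa class and 14 of 18 against the Egfr class.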

Other observations

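The rule left out dividing cells. Another 98 and 116 cells had at least 3 of the 4 genes, Slc1a3, no C1q UMIs and a UMI of Mki67 or Top2a, which is 26.3% and 30.1% of all cells that met the other conditions. Their median depth was 12373 and 12052 UMIs. Values of genes named in the comparisons follow. H2-Ab1 was at 38.8 and 42.6 CPM in these dividing cells, against 81.9 and 93.8 CPM in the 4-gene astroglia and 2.92 and 2.52 CPM in other astroglia. Hspb8 was at 56.7 and 78.4 CPM in the dividing cells, against 83.9 and 95.2 CPM in the 4-gene astroglia. Col9a1 was at 48.8 and 52.7 CPM in the dividing cells, against 78.7 and 92.3 CPM in the 4-gene astroglia. These 3 genes were thus lower in the dividing cells in both libraries. Smad6 was at 18.7 and 20.7 CPM in the dividing cells and 17.3 and 22.5 CPM in the 4-gene astroglia. Tnc was at 799 and 1011 CPM in the dividing cells and 989 and 1001 CPM in the 4-gene astroglia. Selenom was at 903 and 1042 CPM in the dividing cells and 1145 and 1042 CPM in the 4-gene astroglia. Lef1 was at 23.7 and 25.7 CPM in the dividing cells and 30.5 and 28.7 CPM in the 4-gene astroglia. A UMI of H2-Aa, H2-Ab1, H2-Eb1 or Cd74 was found in 24.5% and 29.3% of them. These values are a description with no test.

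All 4 rule genes lie on chromosome 11. With the rule's genes left out, chromosome 11 held 7.86% and 7.80% of UMIs in 4-gene astroglia and 7.98% and 7.98% in other astroglia. Of 1159 genes tested on it, 86 (7.42%) were higher in 4-gene astroglia, beside 7.6% over all genes tested.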
